A study of Mus musculus with 9 samples.

Results

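A set of 10 genes of mast cell and eosinophil granules, and of receptors that mast cells carry, was followed through mouse corneal development: *Tpsb2*, *Tpsab1*, *Cma1*, *Mcpt4*, *Cpa3*, *Hdc*, *Kit*, *Ms4a2*, *Fcer1a* and *Prg2*. These 10 genes were found by symbol among 19369 genes listed in at least 1 sample, and 9 of them were listed. The set was chosen by the strong rise of *Tpsb2* in FPKM from E10.5 to the corneas, so the values of *Tpsb2* are given as a description with no test. The RNA-Seq series held 9 samples of C57BL/6 embryos, 3 each of periocular neural crest (pNC) at E10.5, cornea at E14.5 and cornea at E16.5. All embryos were wild type and untreated. Each sample was a pool of tissue from many eyes. The pNC was the mesenchyme around the eye after dispase and removal of ectoderm, lens vesicle and optic cup, and the corneas were cut free of the surrounding tissue. No cells were sorted, so a sample could hold blood cells and resident immune cells beside corneal cells.

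Mast cells store tryptases, chymases and carboxypeptidase A3 in granules, bound to heparin and other proteoglycans, together with histamine, which histidine decarboxylase makes. Tryptases cleave after basic residues and chymases after aromatic ones. Mast cells depend on the receptor Kit and its ligand, stem cell factor, and connective tissue mast cells settle in skin, conjunctiva and other surface tissues before birth. Degranulation follows when antigen cross-links IgE on the high-affinity receptor FcεRI. Eosinophils carry another set of granule proteins, among them major basic protein, eosinophil peroxidase and the eosinophil-associated ribonucleases.

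*Tpsb2*, *Cma1*, *Cpa3* and *Hdc* were at or near 0 in the pNC and stood between 20.5 and 55.5 FPKM (fragments scaled to transcript length and to the library total) in every E16.5 cornea. *Prg2*, which codes for eosinophil major basic protein, followed another course, with 11.4 to 27.3 FPKM at E14.5 and at most 2.22 FPKM at E16.5. *Kit* was present at all stages and was lowest on average at E16.5. Of the FcεRI genes, also defining markers of mast cells, *Ms4a2* was near 0 in every sample and *Fcer1a* was listed in none.

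Between 8745161 and 9069023 expected counts were assigned to genes in each sample. A count of 0 in a library allows up to 3 counts, and this limit covers counting error only. For *Tpsb2* it corresponds to 0.304 to 0.315 FPKM. The labelled tissues carried their markers: *Alx1* and *Six2* were highest in the pNC, and *Kera*, *Lum* and *Pax6* in the corneas. E14.5 replicate 1 stood apart from the other two E14.5 samples. It held 803 FPKM of the keratocyte gene *Kera* against 83.1 and 151 FPKM, and 101.52 FPKM of the corneal epithelial keratin *Krt12* against 0.62 and 2.06 FPKM. The results below that rest on this sample are therefore given with and without it. In bulk tissue, fewer cells of a type and less RNA per cell cannot be told apart.

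The 10 genes lie on 7 chromosomes of the mouse genome (GRCm38.p6). The tryptase genes *Tpsb2* (Entrez Gene 17229, chr17:25366308-25368096) and *Tpsab1* (chr17:25343245-25345562) lie close together, and so do the chymase genes *Cma1* (chr14:55941451-55944675) and *Mcpt4* (chr14:56059744-56062310). RefSeq classes *Tpsab1* as a transcribed pseudogene in this build. The other genes are *Cpa3* (chr3:20215616-20242209), *Hdc* (chr2:126593659-126624025), *Prg2* (chr2:84980461-84983632), *Kit* (chr5:75574987-75656722), *Ms4a2* (chr19:11615517-11623790) and *Fcer1a* (chr1:173221269-173227232). Because reads of close relatives can be misassigned, stretches of 50 bases shared with GENCODE transcripts of any other gene were counted. *Tpsb2*, *Tpsab1*, *Cpa3*, *Hdc*, *Kit* and *Prg2* shared none, and *Tpsb2* and *Tpsab1* were 74.0% identical over their aligned bases. *Cma1* shared 5.46% of its stretches with *Gm48934*, *Mcpt4* shared 5.48% with *Cma2*, and *Ms4a2* shared 2.69% with *Ms4a4b*, so a small part of their counts is uncertain.

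Mast cell genes are known targets of GATA factors, which bind around the core GATAA. Windows of 250 bases before the RefSeq start (GRCm38.p6) were available for 7 of the 10 genes, and those of 4 genes whose level differed between stages are printed first, followed by *Ms4a2*, which stayed near 0. All 5 genes are on the minus strand, and each window runs 5′ to 3′ toward a RefSeq transcript start, with GATAA or its complement TTATC in capitals. The windows are chr3:20242182-20242431 for *Cpa3*, chr14:55944676-55944925 for *Cma1*, chr14:56062311-56062560 for *Mcpt4*, chr2:126618679-126618928 for *Hdc* and chr19:11623720-11623969 for *Ms4a2*. The *Hdc* window precedes a transcript start inside the gene span given above, and those of *Cpa3* and *Ms4a2* overlap the 5′ end of the span.
Cpa3: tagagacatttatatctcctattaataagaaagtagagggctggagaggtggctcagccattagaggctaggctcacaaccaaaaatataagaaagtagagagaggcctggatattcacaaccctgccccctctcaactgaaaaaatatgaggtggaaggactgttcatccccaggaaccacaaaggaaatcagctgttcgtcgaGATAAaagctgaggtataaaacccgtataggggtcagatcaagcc
Cma1: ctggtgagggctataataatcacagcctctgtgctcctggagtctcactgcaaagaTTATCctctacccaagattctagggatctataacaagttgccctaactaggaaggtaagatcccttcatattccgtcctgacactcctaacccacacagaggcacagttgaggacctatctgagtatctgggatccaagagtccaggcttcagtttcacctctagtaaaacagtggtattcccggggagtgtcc
Mcpt4: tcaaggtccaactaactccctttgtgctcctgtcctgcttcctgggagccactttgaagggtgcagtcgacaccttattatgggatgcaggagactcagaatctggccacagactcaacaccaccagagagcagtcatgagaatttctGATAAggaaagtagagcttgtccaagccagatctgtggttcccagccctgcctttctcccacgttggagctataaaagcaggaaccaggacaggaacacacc
Hdc: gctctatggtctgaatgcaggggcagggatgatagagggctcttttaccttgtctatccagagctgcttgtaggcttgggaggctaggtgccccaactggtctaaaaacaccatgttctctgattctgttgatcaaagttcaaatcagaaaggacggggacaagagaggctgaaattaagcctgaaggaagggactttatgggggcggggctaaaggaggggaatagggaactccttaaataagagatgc
Ms4a2: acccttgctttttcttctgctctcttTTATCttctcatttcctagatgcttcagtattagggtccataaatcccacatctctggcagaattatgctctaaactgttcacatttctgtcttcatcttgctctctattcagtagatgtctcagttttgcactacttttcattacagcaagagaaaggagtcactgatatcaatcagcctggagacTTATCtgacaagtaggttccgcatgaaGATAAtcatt
The core GATAA, read on both strands, occurred in 5 of the 7 windows and in 22.6% of 32851 RefSeq promoter windows of this length. Its first base lay at -45 in *Cpa3*, -102 in *Mcpt4*, -194 in *Cma1* and -92 in *Fcer1a*, whose window is not printed. Positions are counted back from -1 at the last base before the start. *Ms4a2* held 3 copies, at -224, -37 and -10, while *Hdc* and *Kit* held none. The TATA element TATAAA, also read on both strands, stood at -31 in *Cpa3*, -32 in *Mcpt4* and -125 in *Fcer1a* and was found in 12.4% of all windows. In *Cpa3* a further copy lay at -242. The E-box CANNTG, where factors such as Mitf bind, was present in windows of 4 of the 7 genes and in 66.2% of all windows. These matches describe the sequence and are not binding sites. The genes whose windows are printed differed in level: *Cpa3*, *Cma1*, *Mcpt4* and *Hdc* were low at E10.5 and higher at E16.5. *Ms4a2*, with its 3 copies of the core, was 0 FPKM at E10.5 and at or under 0.3 FPKM in the corneas.

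**Figure D1:**
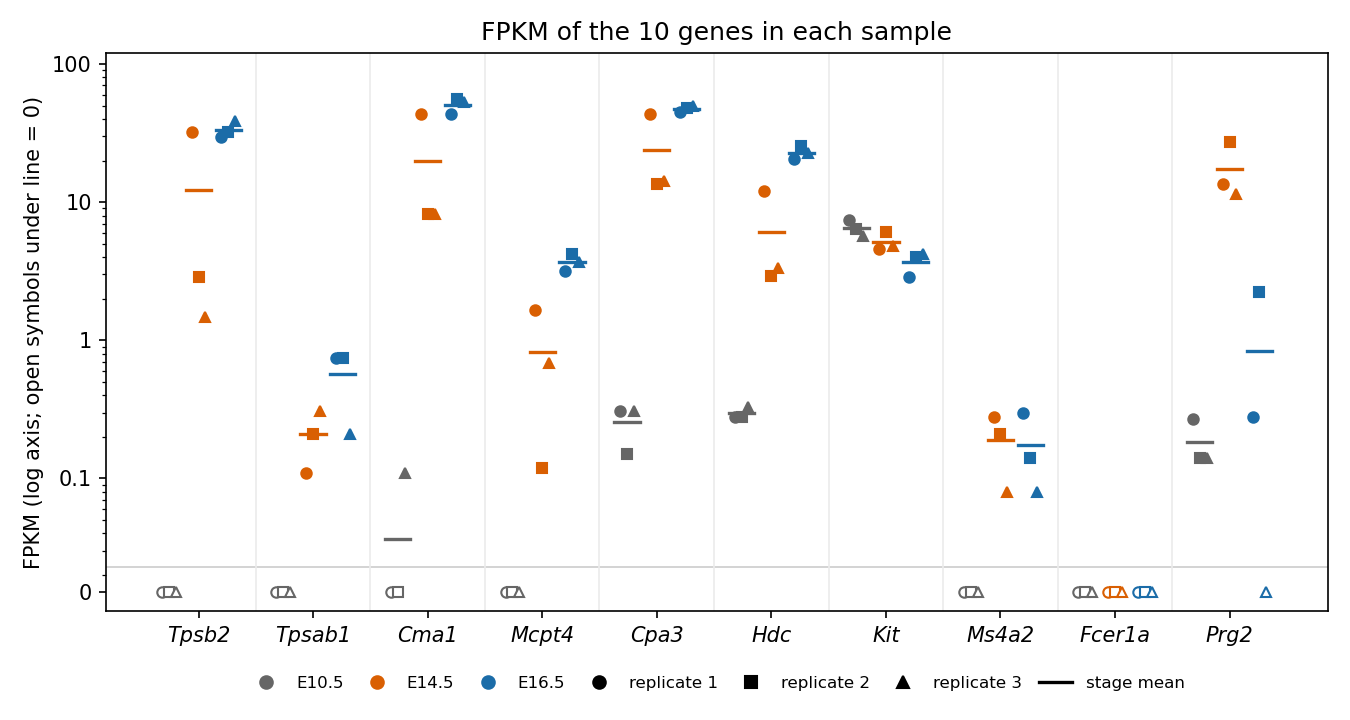
FPKM (log axis) of the 10 genes in each of the 9 samples, with color for stage, symbol shape for replicate number, and a bar at the stage mean. Open symbols under the gray line are 0. *Tpsb2*, *Cma1*, *Mcpt4*, *Cpa3* and *Hdc* are highest at E16.5 on average, with E14.5 replicate 1 above the other two E14.5 samples, while *Prg2* is highest at E14.5.

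*Tpsb2* codes for the mast cell tryptase also called mMCP-6. Its level was 0 FPKM in all 3 E10.5 samples, 32.3, 2.87 and 1.47 FPKM in E14.5 replicates 1, 2 and 3, and 29.4, 32.2 and 38.5 FPKM at E16.5. These values stand for 303, 27 and 14 counts at E14.5 and 275 to 365 counts at E16.5. The E14.5 samples did not form one level: replicate 1 lay within the range of the E16.5 samples, and the other two were far below it. Against the limit of 3 counts per library at E10.5, *Tpsb2* was at least 38.7-fold higher at E14.5, or at least 6.90-fold higher without replicate 1. At E16.5 it was at least 106-fold higher. The means were 12.2 ± 17.4 FPKM at E14.5 and 33.4 ± 4.63 FPKM at E16.5 (SD, n = 3), so the order of the stages was E10.5, E14.5, E16.5, with overlapping samples between the last pair. *Tpsab1*, which codes for the related tryptase mMCP-7 in strains where it is intact, was 0 FPKM at E10.5, 0.11, 0.21 and 0.31 FPKM at E14.5 and 0.75, 0.74 and 0.21 FPKM at E16.5. No library held more than 7 counts of it, and it was left out of the test by the filter on low counts.

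*Cma1* codes for chymase mMCP-5. Its level was 0, 0 and 0.11 FPKM at E10.5, 43.6, 8.2 and 8.19 FPKM at E14.5, and 43.1, 55.5 and 53 FPKM at E16.5. Every corneal sample lay above every E10.5 sample, and E14.5 replicate 1 lay just above the lowest E16.5 sample. By edgeR's quasi-likelihood test, *Cma1* was higher in the E14.5 corneas than in the pNC (log2 fold change 8.67 ± 1.29 SE, adjusted p = 0.000239, n = 3) and in the E16.5 corneas than in the pNC (log2 fold change 10.18 ± 1.15 SE, adjusted p = 1.61e-05, n = 3). The E10.5 samples held 1 count in all, so the size of these ratios is poorly fixed: the ratio of summed count shares for E16.5 was 1448, with a 95% counting interval of 259 to 57234. *Mcpt4*, which codes for chymase mMCP-4, was 0 FPKM in the 3 E10.5 samples, 1.65, 0.12 and 0.69 FPKM at E14.5, and 3.19, 4.2 and 3.68 FPKM at E16.5. Its 3 stages did not overlap, but E14.5 replicate 2 held 1 count, under the limit of 3 counts per library. Both corneal stages were called higher than the pNC by edgeR (adjusted p = 0.0101 for E14.5 and 0.000183 for E16.5), and against 3 counts per library it was at least 2.36-fold higher at the first of these stages and at least 10.7-fold higher at the second. Without E14.5 replicate 1 the former bound was 1.18. On the log2(FPKM + 1) scale the E14.5 difference was 0.78, under the minimum of 1, with limma (adjusted p = 0.0311, n = 3). *Cma1* and *Mcpt4* passed the filter on low counts through corneal samples. A higher level there than at E10.5 was thus built into their selection.

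*Cpa3* codes for carboxypeptidase A3, which trims peptides in mast cell granules. Its level was 0.31, 0.15 and 0.31 FPKM at E10.5, 43.7, 13.5 and 14.1 FPKM at E14.5, and 44.7, 48.3 and 49.4 FPKM at E16.5. The 3 stages did not overlap, although E14.5 replicate 1 came within 1 FPKM of the lowest E16.5 sample. The edgeR log2 fold change was 6.45 ± 0.66 SE at E14.5 (adjusted p = 2.02e-05, n = 3) and 7.62 ± 0.63 SE at E16.5 (adjusted p = 1.80e-06, n = 3) against E10.5. *Hdc* codes for histidine decarboxylase, the enzyme that makes histamine. It was 0.28, 0.28 and 0.33 FPKM at E10.5, 12.1, 2.91 and 3.34 FPKM at E14.5, and 20.5, 25.4 and 22.5 FPKM at E16.5. Here the stages were fully separate, and E14.5 replicate 1 lay between the other E14.5 samples and the E16.5 range. The edgeR log2 fold change of *Hdc* was 4.32 ± 0.66 SE at E14.5 (adjusted p = 0.000296, n = 3) and 6.38 ± 0.61 SE at E16.5 (adjusted p = 4.71e-06, n = 3) against E10.5. Both genes had counts in every pNC sample, 10 in all for *Cpa3* and 19 for *Hdc*. These counts are few, and both genes passed the filter on low counts through corneal samples. A higher level there than at E10.5 was thus built into their selection.

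The step from E14.5 to E16.5 asked whether these genes still differed once the cornea had formed its layers. *Hdc* was higher at E16.5 (log2 fold change 2.07 ± 0.41 SE, edgeR adjusted p = 0.00370, n = 3), and so was *Mcpt4* (2.32 ± 0.56 SE, edgeR adjusted p = 0.0131, n = 3). However, *Mcpt4* held 14, 1 and 6 counts at E14.5 and passed the filter through the E16.5 samples. A higher level at E16.5 was thus built into its selection. *Cma1* (1.51 ± 0.51 SE, edgeR adjusted p = 0.0399, n = 3) and *Cpa3* (1.17 ± 0.36 SE, edgeR adjusted p = 0.0271, n = 3) were called as well, but less firmly. Both calls were lost when libraries were scaled by their totals, with DESeq2 (adjusted p = 0.135 for *Cma1* and 0.0688 for *Cpa3*, n = 3), and with only the 6 corneal samples in the fit. When 1 library was left out, the *Cma1* call held only without E14.5 replicate 1, and adjusted p ran up to 0.112. The *Cpa3* call was lost without any one of E14.5 replicates 2 and 3 and E16.5 replicates 1, 2 and 3 (adjusted p 0.0562 to 0.0900).

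**Figure D2:**
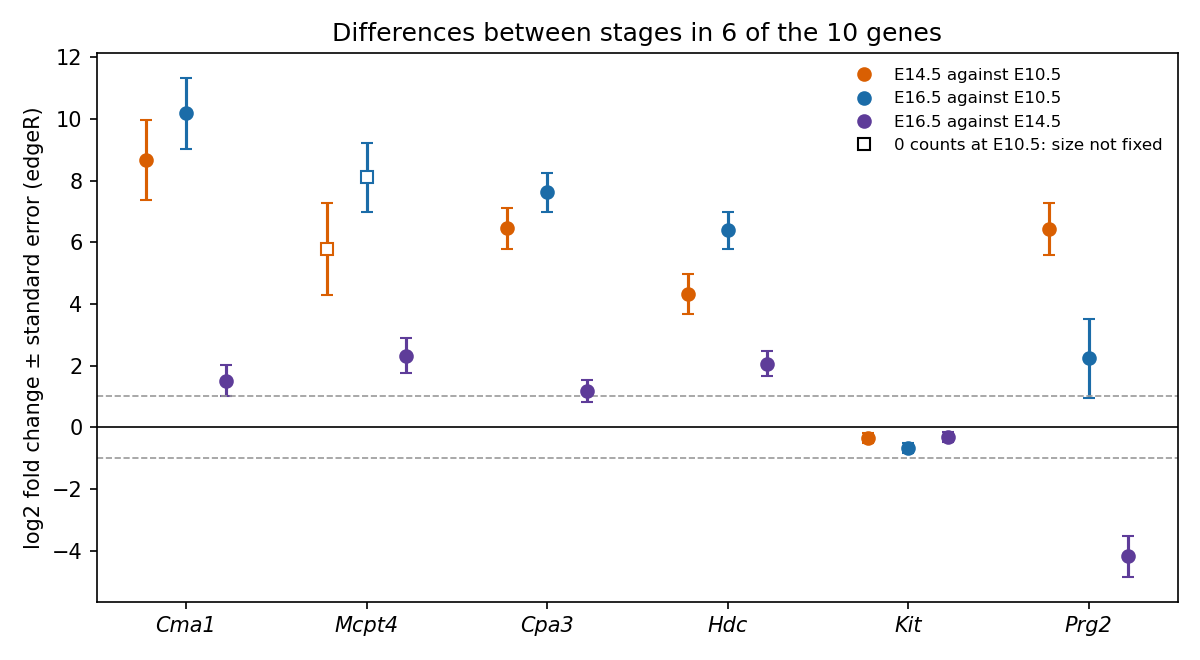
Log2 fold change (edgeR, ± standard error, 3 samples per stage) of the 6 genes tested beside *Tpsb2* in the 3 pairs of stages. Dashed lines mark the minimum of 1, and open squares mark *Mcpt4* against E10.5, where 0 counts leave the size of the ratio unfixed. *Cma1*, *Mcpt4*, *Cpa3* and *Hdc* lie above 1 in all 3 comparisons, *Kit* lies between 0 and -1, and *Prg2* is at 6.42, 2.24 and -4.19.

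The 3 E14.5 samples differed among themselves in the same direction for *Tpsb2*, *Cma1*, *Mcpt4*, *Cpa3* and *Hdc*. E14.5 replicate 1 exceeded the mean of replicates 2 and 3 by 14.9-fold for *Tpsb2*, 5.32-fold for *Cma1*, 4.07-fold for *Mcpt4*, 3.88-fold for *Hdc* and 3.17-fold for *Cpa3*. The order of the genes differed from a common scaling: relative to *Cpa3*, *Tpsb2* was at 0.739 in replicate 1 and at 0.213 and 0.104 in replicates 2 and 3. At E16.5 this ratio was 0.659, 0.667 and 0.778. *Tpsab1*, *Prg2* and *Kit* did not share the pattern, with 0.423, 0.701 and 0.833 times the mean of the other two samples in replicate 1, the first from 1 to 3 counts per library. In replicate 1 the cornea markers *Krt12* and *Kera* were also higher, and the embryonic globin *Hbb-y* was lower, at 117 FPKM against 550 and 538 FPKM. Of 8 red blood cell genes, 3 were highest (*Hba-a1*, *Hbb-bs* and *Alas2*) and 3 lowest (*Hbb-bh1*, *Hbb-y* and *Hba-x*) in replicate 1. All 5 cornea markers were highest in that sample, while 6 of 7 pNC markers and all 5 blood vessel genes were lowest. The globin *Hbb-bs* was higher there, at 1460 FPKM against 437 and 601 FPKM. Between E14.5 and E16.5, *Krt12* and *Kera* were called higher and *Hbb-y* lower. The part of the marker differences in those of the granule genes was not tested. Without E14.5 replicate 1, the mean of *Tpsb2* at E14.5 was 2.17 FPKM. The E14.5 against E10.5 calls then held, with log2 fold changes of 7.40 for *Cma1*, 5.68 for *Cpa3*, 4.81 for *Mcpt4*, 3.37 for *Hdc* and 6.58 for *Prg2* (edgeR adjusted p at most 0.0173, n = 3 against 2). The E16.5 against E14.5 differences became larger, at 2.78 for *Cma1*, 1.94 for *Cpa3*, 3.29 for *Mcpt4* and 3.02 for *Hdc* (edgeR adjusted p at most 0.000830).

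**Figure D3:**
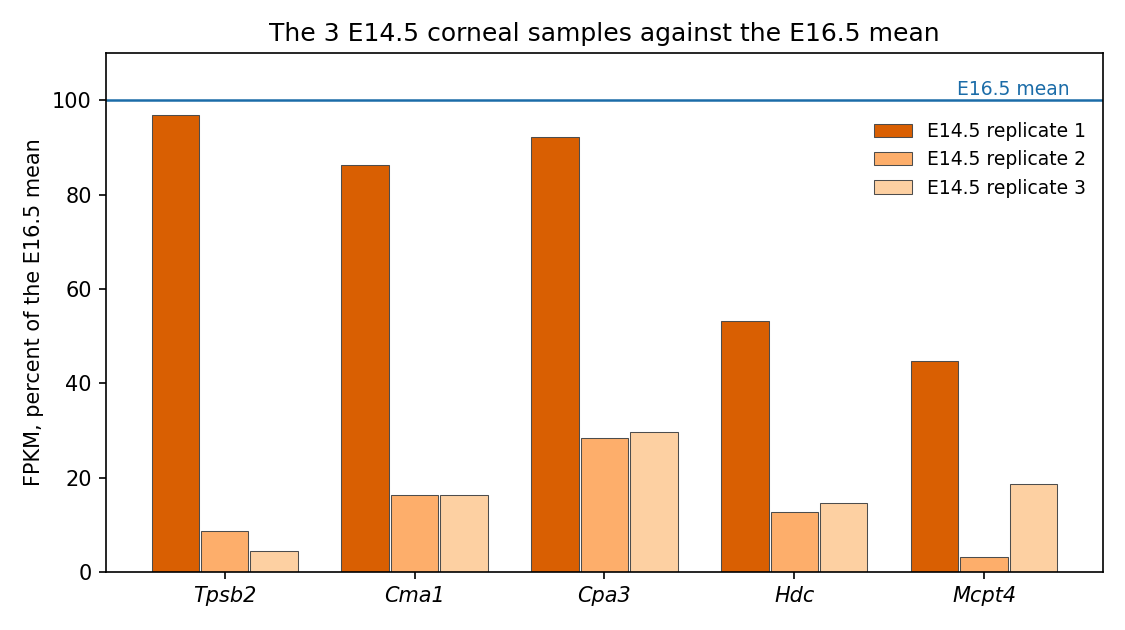
FPKM of 5 granule genes in each E14.5 cornea sample, as a percentage of the mean of the 3 E16.5 samples (blue line at 100%). Replicate 1 reaches 96.9% for *Tpsb2*, 92.1% for *Cpa3* and 86.3% for *Cma1*, while replicates 2 and 3 stay at or under 29.7% for all 5 genes.

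*Kit*, the receptor for stem cell factor on mast cells, melanocytes and blood progenitors, was 7.44, 6.44 and 5.73 FPKM at E10.5, 4.55, 6.1 and 4.83 FPKM at E14.5, and 2.88, 4.03 and 4.19 FPKM at E16.5. The E10.5 samples overlapped those of E14.5, and all E16.5 samples lay below all others. The edgeR log2 fold change was -0.67 ± 0.17 SE from E10.5 to E16.5 (adjusted p = 0.00429, n = 3), which passed the p threshold but not the minimum of 1. Of all genes tested, 34.7% passed the p threshold in the lower direction. It was -0.36 ± 0.16 SE at E14.5 against E10.5 (adjusted p = 0.0874, n = 3) and -0.31 ± 0.17 SE at E16.5 against E14.5 (adjusted p = 0.179, n = 3). *Ms4a2*, the beta chain of FcεRI, was 0 FPKM at E10.5, 0.28, 0.21 and 0.08 FPKM at E14.5, and 0.3, 0.14 and 0.08 FPKM at E16.5. It was too low for the test, and the E14.5 and E16.5 samples covered the same range. *Fcer1a*, the alpha chain that binds IgE, was listed in no sample. Whether its transcript was in the authors' reference is not given in the sources used here, so it may not have been measured. *Fcer1g*, the gamma chain that other Fc receptors also use, was measured at 8.79 to 23.1 FPKM across the 9 samples and was not called in any comparison at the thresholds used. It was called higher at E14.5 than at E10.5 without E14.5 replicate 3, and with no minimum on the fold change (log2 fold change 0.87, edgeR adjusted p = 0.00672).

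*Prg2* was 0.27, 0.14 and 0.14 FPKM at E10.5, 13.6, 27.3 and 11.4 FPKM at E14.5, and 0.28, 2.22 and 0 FPKM at E16.5. The E14.5 samples lay above all others, and the E10.5 and E16.5 samples overlapped. It was higher in the E14.5 corneas than in the pNC (log2 fold change 6.42 ± 0.84 SE, edgeR adjusted p = 0.000107, n = 3) and lower in the E16.5 than in the E14.5 corneas (-4.19 ± 0.67 SE, edgeR adjusted p = 0.00140, n = 3). *Prg2* held 2, 16 and 0 counts at E16.5 and passed the filter through the E14.5 samples. Both directions were thus built into its selection. From E10.5 to E16.5 the log2 fold change was 2.24 ± 1.28 SE (edgeR adjusted p = 0.142, n = 3), and 1 library decided it: without E16.5 replicate 2 it was -0.23, and without E16.5 replicate 3 it was 2.82 with an adjusted p of 0.0383. Other eosinophil granule genes were low. *Epx*, eosinophil peroxidase, was at most 0.04 FPKM at E10.5, 0.55, 2.36 and 0.58 FPKM at E14.5 and at most 0.13 FPKM at E16.5, with its highest value in the same sample as *Prg2*. Of 11 other eosinophil genes, 4 could be tested, and *Epx*, *Ear2* and *Cebpe* were called higher in the E14.5 corneas than in the pNC and lower in the E16.5 corneas than in those of E14.5, where 13.6% and 5.47% of all genes were called in these directions. These 3 genes held few counts outside E14.5 and passed the filter through the E14.5 samples, so the direction was built into their selection. In the fits without E14.5 replicate 3, or without any one E10.5 sample, or without E16.5 replicate 2, this count was 5 in both steps, since *Ear1* and *Ear6* then passed the filter, again through E14.5. Without E16.5 replicate 1 or 3 it was 5 in the first step, and by the NOISeq criterion of the study it was 0 and 1. The eosinophil receptor *Ccr3* did not exceed 0.03 FPKM in any sample, and *Siglecf* did not exceed 0.37 FPKM.

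Of the 9 genes other than *Tpsb2*, 6 passed the filter on low counts and 3 (*Tpsab1*, *Ms4a2* and *Fcer1a*) did not. At E14.5 against E10.5, 5 were called higher and 0 lower, where edgeR called 13.6% of all 14771 genes higher and 7.97% lower. At E16.5 against E10.5, 4 were called higher and 0 lower, against 19.4% and 15.4% of all genes. The 0 lower calls held with DESeq2 and limma, and at an unadjusted p under 0.05 the counts were 0 at E14.5 and 1, *Kit*, at E16.5. At E16.5 against E14.5, 4 were called higher and 1 lower, against 6.26% and 5.47% of all genes. The 5 genes called higher held fewer than 10 counts in each E10.5 library and passed the filter through the corneal samples, so a difference from E10.5 was built into their selection. For *Mcpt4*, which passed through E16.5, and *Prg2*, which passed through E14.5, so was the difference between the corneal stages. The comparisons share samples with each other and are not independent. Without the filter, against E10.5 *Ms4a2* had an edgeR adjusted p of 0.0108 for E14.5 corneas and 0.00766 for E16.5 corneas, and *Tpsab1* had 0.0505 and 0.00359, the latter from at most 7 counts per library.

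Genes with related roles in mast cells were read from a list of 22 others, of which 15 could be tested. At E14.5 against E10.5, 8 were called higher and 1 lower, against 13.6% and 7.97% of all genes, with a median log2 fold change of 1.15 beside 0.01 over all genes. At E16.5 against E10.5, 8 were higher and 2 lower, against 19.4% and 15.4% of all genes, with a median of 1.49 beside 0.00. Some of these genes, such as *Adora3* and *Tpsg1*, passed the filter through the corneas, with 5 and 21 counts over the 3 E10.5 libraries. For them a higher level in the corneas was built into the selection. *Hpgds*, the prostaglandin D synthase of mast cells and other blood cells, went from 2.26 to 2.62 FPKM at E10.5 to 8.67 to 12.8 FPKM at E14.5 and 12.8 to 19.2 FPKM at E16.5. *Srgn* codes for serglycin, the proteoglycan core that holds granule proteases. It was 1.48 to 2.52 FPKM at E10.5 and 9.14 to 11.5 FPKM in the corneas. *Il1rl1*, the receptor for interleukin 33, rose from 0.69 to 0.85 FPKM to 2.71 to 3.92 FPKM at E16.5 (log2 fold change 2.17 ± 0.28 SE, edgeR adjusted p = 4.72e-05, n = 3). *Tpsg1*, a membrane-anchored tryptase, was 0.46 to 0.92 FPKM at E10.5 and 1.31 to 3.23 FPKM in the corneas. Other cell types also express *Hpgds*, *Srgn* and *Cd63*, so the list is not particular to mast cells. With limma on log2(FPKM + 1) the counts higher were 4 and 5, and by the NOISeq criterion they were 3 and 3. When 1 library was left out, the count higher was 6 to 9 at E14.5 and stayed at 8 at E16.5. Within E14.5, 18 of the 22 genes were highest in replicate 1, as were 9 of 11 macrophage genes and all 5 cornea markers. Of 5 blood vessel genes and 7 blood progenitor genes, 0 were highest there. The share over all genes was not computed, and *Mcpt1* and *Cma2*, among the 18, had 1 count each at E14.5.

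The transcription factor genes of the list were lower at E16.5 than in the pNC. *Gata2*, which mast cells and their progenitors need, was 15.4 to 17.9 FPKM in the pNC and 1.36 to 2.21 FPKM in the corneas (log2 fold change -3.12 ± 0.17 SE at E14.5, edgeR adjusted p = 2.44e-07, n = 3). *Mitf*, shared by mast cells and melanocytes, was 2.26 to 2.89 FPKM at E10.5, 1.68 to 4.06 FPKM at E14.5 and 1.03 to 1.09 FPKM at E16.5. From E10.5 to E16.5 it was called lower (log2 fold change -1.04 ± 0.29 SE, edgeR adjusted p = 0.00811, n = 3), and this call was lost without E10.5 replicate 2. Between E14.5 and E16.5, 1 gene of the list was called higher and 2 were called lower, against 6.26% and 5.47% of all genes. The higher one, *Hs3st1*, lost its call without any single library other than E14.5 replicate 1. Of those called lower, *Mitf* and *Alox5*, *Alox5* was lost without any one of E14.5 replicates 2 and 3 and E16.5 replicates 1 and 3. *Slc18a2*, which loads histamine into granules, was 0.97 to 1.98 FPKM in the 9 samples and was not called in any comparison. *Mcpt1*, *Mcpt2* and *Cma2*, further granule proteases, did not exceed 0.6 FPKM, and *Mrgprb2*, a receptor of connective tissue mast cells, did not exceed 0.05 FPKM.

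The list of FcεRI signaling genes, which includes *Fcer1g*, was tested in full, 13 of 13. By edgeR 0 were called higher in the 3 comparisons, against 13.6%, 19.4% and 6.26% of all genes. At an unadjusted edgeR p under 0.05, 1 (*Fcer1g*), 0 and 0 were higher. Against E10.5, 1 was lower at E14.5 and 5 were lower at E16.5, against 7.97% and 15.4% of all genes. The 5 were *Lyn*, *Fyn*, *Lat*, *Plcg2* and *Inpp5d*. Without E16.5 replicate 1 this count was 3, and without E14.5 replicate 1 the count at E14.5 was 2. Many other cell types use these kinases and adaptors. *Hnmt*, which breaks histamine down, was 0.41 to 0.74 FPKM at E10.5 and 1.58 to 1.65 FPKM at E16.5 and was called higher (log2 fold change 1.76 ± 0.34 SE, edgeR adjusted p = 0.000858, n = 3). The histamine receptor genes did not exceed 0.33 FPKM. *Kitl*, which codes for stem cell factor, was 5.8, 6.17 and 7.56 FPKM at E10.5, 4.31, 12.6 and 8.47 FPKM at E14.5 and 3.68, 4.28 and 4.44 FPKM at E16.5. It was not called in any comparison, and E14.5 replicate 1, the highest of its stage for the granule proteases, was the lowest for *Kitl*. Without that sample *Kitl* was called lower at E16.5 than at E14.5. The interleukin genes *Il3* and *Il5* and the chemokine gene *Ccl11* did not exceed 0.08 FPKM. Among basophil genes, *Mcpt8* was 0 in every sample, and the protease gene *Prss34* was 0 FPKM at E10.5 and 0.85 to 3.14 FPKM in the corneas.

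**Figure D4:**
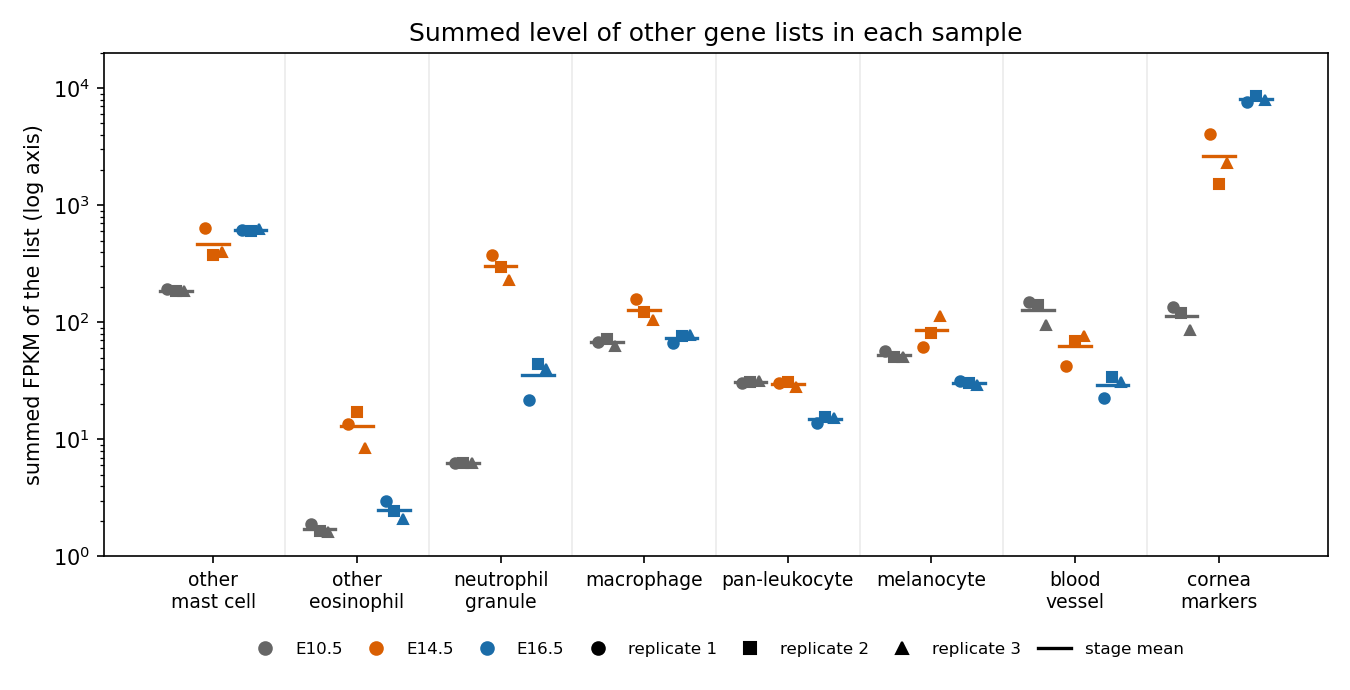
Summed FPKM (log axis) of 8 other gene lists in each sample, with color for stage, shape for replicate number and a bar at the stage mean. The other mast cell genes sum to between 603 and 624 FPKM at E16.5 against 184 to 192 FPKM at E10.5, mostly from *Cd63*, while the eosinophil and neutrophil lists are highest at E14.5 and the pan-leukocyte list is lowest at E16.5.

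Markers of other blood cells followed several courses beside the granule genes. The 5 pan-leukocyte genes summed to 30.2 to 31.4 FPKM at E10.5, 28.2 to 30.9 FPKM at E14.5 and 13.8 to 15.6 FPKM at E16.5. *Ptprc*, which codes for CD45, was 0.71 to 0.76 FPKM at E16.5, where *Cma1* stood at 43.1 to 55.5 FPKM, and was not called in any comparison. The macrophage genes summed to 62.6 to 72.4, 105 to 159 and 66.1 to 78.1 FPKM at the 3 stages, and *Csf1r* was 5.37 to 12.9 FPKM in the 9 samples. The neutrophil granule genes summed to 6.24 to 6.31 FPKM at E10.5, 228 to 376 FPKM at E14.5 and 21.7 to 43.7 FPKM at E16.5, highest at the stage where *Prg2* was highest. Within E14.5, the list summed to 376, 298 and 228 FPKM in replicates 1, 2 and 3, and 8 of its 12 genes were highest in replicate 1, where *Tpsb2* was highest too. The other 4, *Mpo*, *Elane*, *Prtn3* and *Ctsg*, were lowest there. The 6 lymphocyte genes summed to at most 1.53 FPKM. The melanocyte genes summed to 29.3 to 31.3 FPKM at E16.5, below the 50.2 to 57 FPKM of E10.5 and 61.5 to 114 FPKM of E14.5. The part of changes in the number or kind of blood cells in the results above was not tested.

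To see which genes had a course most like that of *Tpsb2*, Pearson's r of log2(FPKM + 1) was computed over the 9 samples for 14297 genes. The samples share their stage, so a high r is a description of course only. The highest values outside the 10 genes were those of *Chl1* (0.994), *Rabac1* (0.993), *Rgs11* (0.993), *Adh7* (0.991), *Ms4a4d* (0.991), *Ikzf3* (0.990), *Sh3d19* (0.989), *6430411K18Rik* (0.988), *Serinc3* (0.988) and *2410124H12Rik* (0.988). *Chl1*, a neural cell adhesion gene, was 0.14 to 0.26 FPKM at E10.5, 4.65, 1.14 and 0.94 FPKM at E14.5 and 4.6 to 5.56 FPKM at E16.5, thus with the same high E14.5 replicate 1. Within the group, r with *Tpsb2* was 0.982 for *Hdc*, 0.971 for *Cma1*, 0.943 for *Mcpt4*, 0.941 for *Cpa3*, 0.12 for *Prg2* and -0.83 for *Kit*. As deviations from the stage mean over the 6 corneal samples, r with *Tpsb2* was 0.981 for *Cma1*, 0.980 for *Cpa3*, 0.960 for *Hdc* and 0.771 for *Mcpt4*, with E14.5 replicate 1 the highest of its stage for each. The genes most like *Prg2* over the 9 samples were *Veph1* (0.974), *Lyst* (0.968), *Cltc* (0.966), *Zfp704* (0.964) and *Ear1* (0.962). *Ear1*, an eosinophil-associated ribonuclease gene, was 2.85, 3.22 and 1.33 FPKM at E14.5 and at most 0.63 FPKM at E16.5.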

How the data were processed

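RNA-Seq was measured in 9 samples, 3 per stage. The authors removed reads with adaptors or of low quality, aligned the others with Bowtie2 (reference genes) and HISAT (GRCm38), and quantified genes with RSEM (versions not given in the sources used here). The deposited expected counts are RSEM estimates per gene, not normalized. From the same estimates the authors derived FPKM, scaled to transcript length and library total. Genes with no estimate are missing from a sample's file and were taken as 0.

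Expected counts were rounded to whole numbers and fitted with edgeR 4.0.16 (R 4.3.3, filterByExpr, TMM, quasi-likelihood test, all 9 samples, stage as the only term). A call needed an adjusted p (Benjamini-Hochberg over all 14771 genes tested) under 0.05 and a log2 fold change of 1 or more in size. Alternatives used DESeq2 1.42.0, limma 3.58.1 on log2(FPKM + 1) or log2(FPKM + 0.1), and the NOISeq criterion of the study (probability of at least 0.8). Intervals are 95% counting intervals. The fits were tested on simulated data. Totals of 8745161 to 9069023 expected counts per sample make counting error small except for rare transcripts, so the spread of 3 samples limits the precision. Each stage was sampled in triplicate from pooled tissue, and p-values measure the spread between these pools. Python 3.11.15 with pandas 2.3.3 and matplotlib 3.10.9 did the rest.

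The 10 genes and the lists were chosen with earlier results of these data known. The genes named are the 10, list genes past both thresholds whose mean reached 1 FPKM in a stage (at most 4 per list and comparison), *Kitl*, *Gata2*, *Mitf*, *Epx*, *Mcpt8*, *Mpo*, *Csf1r* and *Ptprc*, and the genes most like *Tpsb2* and *Prg2*. Other list genes were named after their values were seen. Promoters were read from RefSeq (GRCm38.p6), and coordinates from its annotation. The numbers 1 to 3 in the sample titles did not pair the samples: deviations from the stage means correlated at -0.0341 on average over 9 pairs with the same number and at 0.0178 over 18 pairs with different numbers.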

Additional observations from a re-analysis of the deposited data

How the results depend on the processing

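The calls of 4 or 5 genes against E10.5 kept their number under most alternatives. Over all 3 comparisons and both directions, 110 of 120 recomputed counts stayed within 1.5 times the reported one. These include counts of 0 lower calls that stayed at 0. At E16.5 against E14.5 the count of genes higher was 2 instead of 4 with library totals, with DESeq2, with only the 6 samples compared (*Hdc* and *Mcpt4* each time) and by the NOISeq criterion (*Cma1* and *Hdc*), and 2 to 4 when 1 library was left out. At E16.5 against E10.5 it was 4 to 5 when 1 library was left out. With no minimum on the fold change, 1 gene, *Kit*, was called lower at E16.5 than at E10.5. The log2 fold change of *Prg2* from E10.5 to E16.5 reversed to -0.23 without E16.5 replicate 2 and was 2.82 without E16.5 replicate 3. The cause of these shifts was not tested. Library totals moved the median log2 fold change of all genes by -0.15 at E16.5 against E10.5 and by -0.16 against E14.5, and turned 2862 higher and 2282 lower calls into 2503 and 2695, and 924 and 808 into 731 and 1099. In the fit with the replicate number as a further term (replicate block), 5, 4 and 4 of the 9 genes were called higher and 0, 0 and 1 lower in the 3 comparisons, as without it. Of 358 recomputed log2 fold changes of the genes other than *Tpsb2*, 331 kept direction and call. The lowest levels, those of *Tpsab1*, *Ms4a2* and *Mcpt4* at E14.5, rest on few counts, so the size of their differences is poorly fixed.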
